A study of Homo sapiens with 4 samples.

Results

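Metallothioneins are small cysteine-rich proteins that hold zinc and copper ions, and the genes described here are those of this family together with genes that sense and move zinc. They are the metallothioneins MT2A, MT1E, MT1X, MT1F and MT1G, the metal-responsive transcription factor MTF1, the zinc exporter SLC30A1 and the zinc importer SLC39A10. The 8 genes were taken by symbol from a table of 32973 genes. They were chosen by measured RPKM values, because MT1E and MT2A differed between BCUC-1 and vector libraries and because MT1E differed strongly between the cell lines, so their values in those comparisons are given as a description, with no test. Of the 8 genes, 7 are rows of the table, and MT1G was not analysed here.

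RNA sequencing measured transcript levels in T24T and UMUC3, which are cell lines of human bladder cancer. BCUC-1 is the circular RNA hsa_circ_0001361, which is formed from FNDC3B, and the purpose was to look for genes that act downstream of it. The groups were T24T BCUC-1 and T24T vector, then UMUC3 BCUC-1 and UMUC3 vector, where BCUC-1 cells stably carried a plasmid that overexpresses the circular RNA and vector cells stably carried the vector. All cells grew in RPMI-1640 medium with serum and antibiotics, with no metal or hormone named as a treatment, and the labels do not say whether a transfectant was a clone or a mixed population. Each group held 1 library, so a difference within a line compares 2 libraries and has no replicate check. Intervals are exact 95% intervals for counting error only, and without molecular identifiers the reads are no count of independent molecules.

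Cells keep free zinc low. When zinc enters, MTF1 binds metal response elements in promoters and turns on metallothionein genes, which store the metal, and SLC30A1, which pumps it out across the plasma membrane. SLC39 proteins, SLC39A10 among them, carry zinc into the cytosol, and MT2A is the member of the human metallothionein family that most tissues express at the highest level. Glucocorticoids and oxidative stress are also known to raise metallothionein transcripts.

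The coding sequences of the metallothioneins with more than a few reads are shown first, because they bear on how well reads of 1 gene can be told from those of another. All are 183 bases long without the stop codon, are read on the plus strand of chromosome 16 in GRCh38 (GENCODE 29), and are joined here from exons in chr16:56608656-56609351 for MT2A, chr16:56625852-56626968 for MT1E and chr16:56682541-56684046 for MT1X. Capitals mark bases that differ from MT2A.
MT2A: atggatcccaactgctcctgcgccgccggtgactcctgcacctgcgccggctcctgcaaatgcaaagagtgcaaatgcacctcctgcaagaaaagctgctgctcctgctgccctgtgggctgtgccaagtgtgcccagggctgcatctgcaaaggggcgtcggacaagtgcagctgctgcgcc
MT1E: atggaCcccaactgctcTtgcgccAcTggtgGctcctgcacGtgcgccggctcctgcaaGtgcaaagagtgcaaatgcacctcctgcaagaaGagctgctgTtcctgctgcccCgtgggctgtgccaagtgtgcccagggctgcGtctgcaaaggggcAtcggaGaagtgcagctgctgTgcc
MT1X: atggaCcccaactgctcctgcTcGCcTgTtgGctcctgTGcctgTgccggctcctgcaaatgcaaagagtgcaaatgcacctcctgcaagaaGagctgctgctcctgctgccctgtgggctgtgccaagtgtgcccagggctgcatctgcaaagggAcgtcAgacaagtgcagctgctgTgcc
MT1E and MT1X each differed from MT2A at 14 bases, which gives 92.3% identity, and MT1E and MT1X were 90.7% identical to each other. Over whole transcripts, 4.88% of the 50-base words of MT2A and 5.34% of those of MT1E also occur in another gene's transcript. For MT1X the share was 45.1%, most of it with a noncoding gene that overlaps it, and 15.96% for words shared with other metallothionein genes and pseudogenes. With shorter words of 36 bases, the shares were 10.4% for MT2A, 11.5% for MT1E and 47.5% for MT1X, the last with 19.5% shared within the family. The sources used here give neither the read length nor the handling of reads that match several places, so values of these paralogs carry that uncertainty, that of MT1X most.

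Promoter sequence is shown for the genes in which the core of the metal response element was found. The RefSeq table (GRCh38.p14) held windows for 5 of the 8 genes, and the 250 bases before the annotated start were searched on both strands for TGCACNC and TGCGCNC, where N is any base. MT1E and MT1F had no window, so their promoters were not searched and nothing can be said of them. Capitals mark the matches, written as they stand on the gene's strand.
MT2A: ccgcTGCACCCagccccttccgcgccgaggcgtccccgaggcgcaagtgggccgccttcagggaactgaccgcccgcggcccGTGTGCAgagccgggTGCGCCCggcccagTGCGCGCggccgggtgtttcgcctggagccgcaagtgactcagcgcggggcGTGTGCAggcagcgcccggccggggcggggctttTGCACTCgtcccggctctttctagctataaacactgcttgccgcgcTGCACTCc
MT1X: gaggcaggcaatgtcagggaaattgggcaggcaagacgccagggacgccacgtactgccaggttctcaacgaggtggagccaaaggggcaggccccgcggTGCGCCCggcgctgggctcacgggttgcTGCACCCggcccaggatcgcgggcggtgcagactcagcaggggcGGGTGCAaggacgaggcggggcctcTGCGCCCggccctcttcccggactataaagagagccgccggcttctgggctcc
SLC30A1: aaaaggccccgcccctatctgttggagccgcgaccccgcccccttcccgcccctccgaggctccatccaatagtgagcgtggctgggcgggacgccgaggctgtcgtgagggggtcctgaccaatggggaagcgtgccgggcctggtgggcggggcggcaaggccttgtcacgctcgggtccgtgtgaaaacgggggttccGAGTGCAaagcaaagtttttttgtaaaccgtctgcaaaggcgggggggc
The windows are chr16:56608334-56608583 on the plus strand for MT2A, chr16:56682220-56682469 on the plus strand for MT1X and chr1:211579162-211579411 on the minus strand for SLC30A1. MT2A had 7 matches, with none overlapping another, and 0.0313% of the 35116 promoter windows of the table had as many or more. MT1X had 4 matches, a number reached by 0.37% of windows. SLC30A1 had 1 match, and 24.8% of all windows had at least 1. No match was found in the windows of MTF1 and SLC39A10, which says only that these letters are not in those 250 bases.

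MT2A stood far above every other gene of the group in all libraries. Its level was 372 and 320 RPKM (reads per kilobase of gene and per 1000000 assigned reads) in T24T BCUC-1 and T24T vector, against 566 and 654 RPKM in UMUC3 BCUC-1 and UMUC3 vector. It ranked 90 and 105 by RPKM among all genes in the T24T BCUC-1 and vector libraries, and 69 and 62 in the UMUC3 BCUC-1 and vector libraries. Both T24T libraries lay below both UMUC3 libraries. The ratio of T24T to UMUC3 in RPM (reads per 1000000 assigned reads) was 0.658 (0.642 to 0.674) between the BCUC-1 libraries and 0.490 (0.479 to 0.502) between the vector libraries.

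MT1E, a closely related isoform, had the largest line difference of the group. It had 62.1 and 43.5 RPKM in T24T BCUC-1 and T24T vector, from 1542 and 1084 reads. In UMUC3 BCUC-1 and UMUC3 vector it had 0.0418 and 0.0717 RPKM, from 1 and 2 reads. T24T was therefore high in both libraries and UMUC3 close to 0 in both, with an upper 95% limit of 0.259 RPKM for the higher UMUC3 library. The T24T to UMUC3 ratio was 1486 (266 to 58726) between the BCUC-1 libraries and 607 (167 to 5015) between the vector libraries, so its size is poorly set by so few UMUC3 reads. On the log2(RPKM + 1) scale, which understates changes of low genes, the fitted difference was 5.65 (SE 0.12). In bulk RNA, fewer expressing cells and less RNA per cell cannot be told apart, here or in the results that follow.

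MT1X, a further isoform, had the line order of MT2A and not that of MT1E. It stood at 8.42 and 6.22 RPKM in T24T BCUC-1 and T24T vector, against 16.1 and 19.5 RPKM in UMUC3 BCUC-1 and UMUC3 vector. Both T24T libraries were lower, with T24T to UMUC3 ratios of 0.524 (0.459 to 0.598) between BCUC-1 libraries and 0.319 (0.277 to 0.367) between vector libraries. The noncoding gene RP11-343H19.2 lies on the same strand and shares 321 exonic bases with MT1X, and its reads came to between 88.1% and 93.1% of the MT1X number in each library. A read in the shared bases could be counted for both genes, so RP11-343H19.2 gives no separate measurement of this stretch. Of MT2A, 14 of 737 words of 50 bases and 40 of 751 words of 36 bases also occur in MT1X. In UMUC3 vector MT2A had 22498 reads and MT1X 915, so MT2A reads could be an appreciable part of the MT1X number. That part was not measured, so the line order and BCUC-1 ratios of MT1X may not be separate from those of MT2A.

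MT1F was at the limit of detection. It had 2 reads in each T24T library, which is 0.0449 and 0.0447 RPKM in BCUC-1 and vector, and 0 reads in both UMUC3 libraries. A count of 0 allows up to 0.0699 and 0.0599 RPKM (3 reads) in UMUC3 BCUC-1 and UMUC3 vector, so a line difference was not detectable at this depth. The other metallothionein rows were pseudogenes or pseudogene-like loci with 0 to 2 reads in each library, namely MT1L, MT1JP, MT1XP1, MT1P1 and MT1P3. The MT2A pseudogene MT2P1, added to these after its values were seen, had 3 reads in each T24T library, against 12 and 7 reads in UMUC3 BCUC-1 and UMUC3 vector.

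Among the regulator and the transporters, MTF1 and SLC39A10 were higher in T24T and SLC30A1 was close in both lines. MTF1, the zinc-sensing factor, had 6.57 and 6.72 RPKM in T24T BCUC-1 and vector, against 3.18 and 2.91 RPKM in UMUC3 BCUC-1 and vector. The T24T libraries were both above the UMUC3 libraries, with ratios of 2.07 (1.87 to 2.28) for BCUC-1 and 2.31 (2.09 to 2.54) for vector. SLC39A10, a plasma membrane zinc importer, had 15.97 and 19.4 RPKM in T24T BCUC-1 and vector, against 9.05 and 10.9 RPKM in UMUC3 BCUC-1 and vector, with ratios of 1.76 (1.65 to 1.88) and 1.78 (1.69 to 1.89). SLC30A1, the plasma membrane zinc exporter, had 4.89 and 4.88 RPKM in T24T BCUC-1 and vector, against 4.29 and 5.55 RPKM in UMUC3 BCUC-1 and vector. Here the T24T libraries lay between the UMUC3 libraries, and the T24T to UMUC3 ratio was 1.14 (1.01 to 1.28) for BCUC-1 and 0.879 (0.790 to 0.976) for vector.

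By RPKM the order in T24T was MT2A, MT1E and SLC39A10, then MT1X and MTF1, then SLC30A1 and MT1F. The intervals of MT1X (5.49 to 7.02 RPKM) and MTF1 (6.35 to 7.09 RPKM) overlapped in T24T vector and not in T24T BCUC-1. In UMUC3 the order was MT2A, MT1X, SLC39A10, SLC30A1 and MTF1, with MT1E and MT1F at the bottom. MT1E thus stood in the second place in T24T and below MTF1 in UMUC3. Orders and ratios between genes rest on the deposited gene lengths, 1299 bases for MT2A, 1052 for MT1E and 1773 for MT1X. The transcripts used for the word counts above were shorter, at 786, 704 and 450 bases in that order. A shorter length would give a higher RPKM, for MT1X most of these genes, so the place of MT1X is uncertain.

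**Figure D1:**
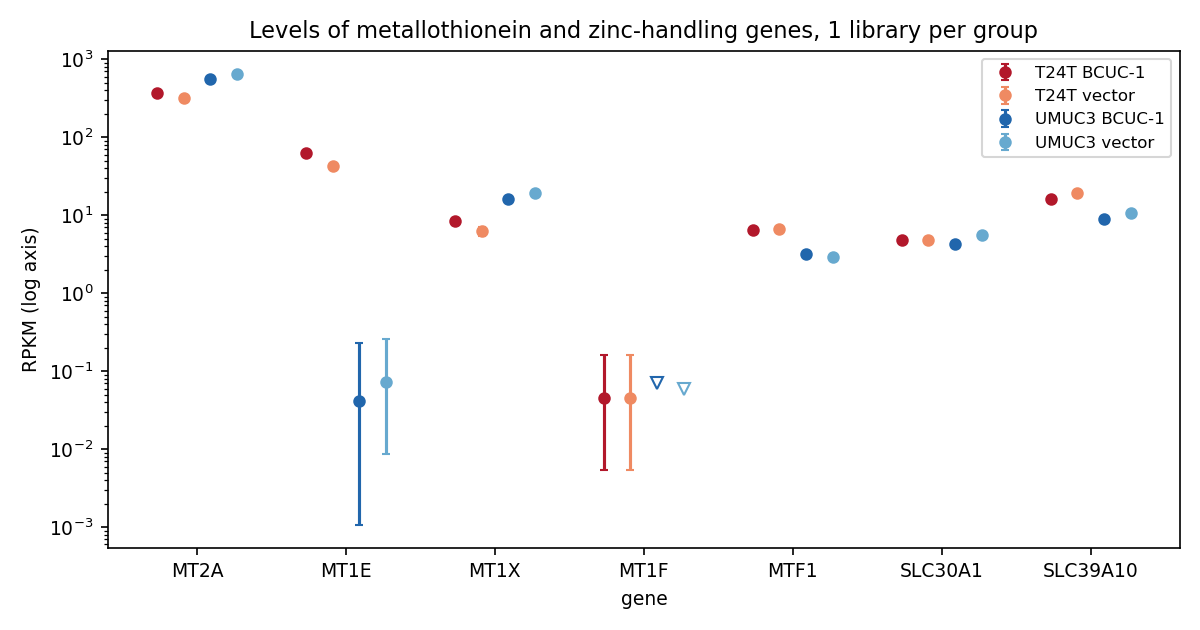
RPKM on a log axis of the 7 genes in the 4 libraries, 1 point per library with exact 95% Poisson intervals (often smaller than the point); open triangles mark the level that 3 reads would give where no read was found. MT2A is highest throughout, and MT1E lies at 62.1 and 43.5 RPKM in T24T BCUC-1 and vector and below 0.1 RPKM in both UMUC3 libraries.

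Put together, all metallothionein rows held 565 and 473 RPM in T24T BCUC-1 and T24T vector, against 765 and 884 RPM in UMUC3 BCUC-1 and UMUC3 vector. MT2A supplied 85.7% and 87.9% of these reads in T24T BCUC-1 and vector, against 96.2% and 96.1% in UMUC3 BCUC-1 and vector. MT1E supplied 11.6% (11.0 to 12.1) in T24T BCUC-1 and 9.67% (9.13 to 10.2) in T24T vector, against 0.00575% and 0.00854% in UMUC3 BCUC-1 and vector, by Clopper-Pearson intervals. T24T thus had a mixed pool of MT2A and MT1E, and UMUC3 a larger pool that was nearly all MT2A. MT1X was a small share in every library, 2.64% and 2.33% in T24T BCUC-1 and vector and 3.72% and 3.91% in UMUC3 BCUC-1 and vector. Per length, MT2A exceeded MT1E by 5.99-fold and 7.36-fold in T24T BCUC-1 and vector. For every 10000 MT2A reads, UMUC3 BCUC-1 and vector had 0.598 and 0.889 MT1E reads, so no more MT2A reads than that can have been assigned to MT1E there.

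**Figure D2:**
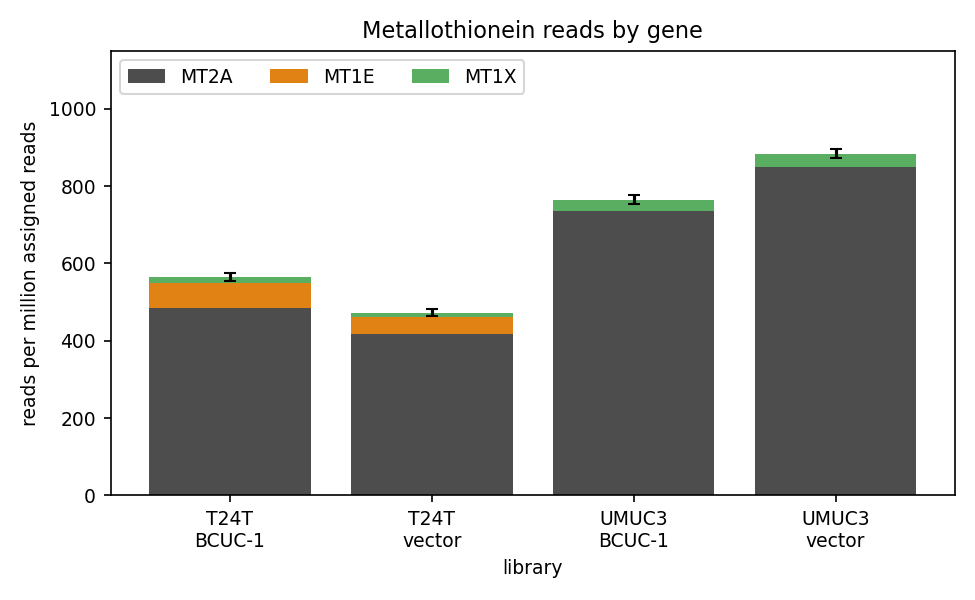
Reads per 1000000 assigned reads (RPM) of MT2A, MT1E and MT1X, stacked for each library, with exact 95% Poisson intervals of the metallothionein total. The T24T BCUC-1 and vector totals are 565 and 473 and the UMUC3 BCUC-1 and vector totals 765 and 884, and the MT1E band is visible in T24T alone.

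The metallothioneins lie in a cluster on the plus strand of chromosome 16, with pseudogenes and noncoding genes between them. MT2A is at chr16:56608199-56609497, MT1E at chr16:56625475-56627112, MT1F at chr16:56657694-56660698 and MT1X at chr16:56682424-56684196. MT1E, high in T24T, therefore sits between MT2A and MT1X, both high in UMUC3. The genes on either side of the cluster had smaller fitted differences. BBS2, a ciliary trafficking gene, had 6.13 and 6.40 RPKM in T24T BCUC-1 and vector, against 4.54 and 4.12 RPKM in UMUC3 BCUC-1 and vector, a fitted log2 difference of 0.45 (adjusted p = 0.00195). NUP93, a nuclear pore gene, had 7.23 and 6.63 RPKM in T24T BCUC-1 and vector, against 8.09 and 7.16 RPKM in UMUC3 BCUC-1 and vector, and did not pass the test (-0.12, adjusted p = 0.253).

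**Figure D3:**
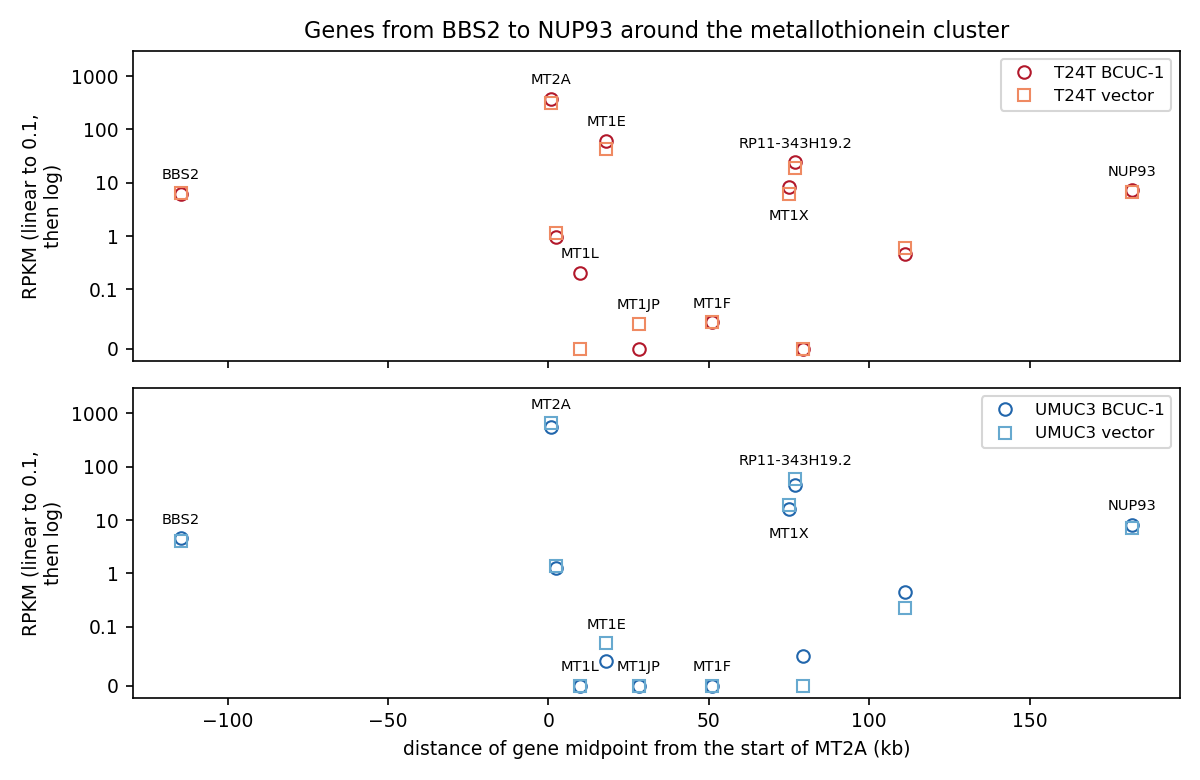
RPKM (linear to 0.1, then log) of each listed gene from BBS2 to NUP93 against the distance of its midpoint from the start of MT2A in kilobases, T24T above and UMUC3 below, with circles for BCUC-1 and squares for vector; unlabelled points are noncoding or pseudogene loci. MT1E alone among the expressed metallothioneins drops to near 0 in UMUC3, while BBS2 and NUP93 stay between 4.12 and 8.09 RPKM.

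Against vector, BCUC-1 went with more metallothionein reads in T24T and with fewer in UMUC3. In T24T, the BCUC-1 to vector ratio of RPM was 1.43 (1.32 to 1.54) for MT1E, from 1542 and 1084 reads. It was 1.35 (1.15 to 1.60) for MT1X, from 352 and 261 reads, and 1.16 (1.13 to 1.19) for MT2A, from 11413 and 9853 reads. All 3 intervals lay above 1, and the metallothionein total had a ratio of 1.19 (1.16 to 1.22). Among the 12515 genes with at least 200 reads in the T24T pair, MT1E ranked 7 from the highest ratio, MT1X 15 and MT2A 242. No gene of the group passed 2-fold, which 0.348% of 16084 genes did. MT1E and MT1X were at least 25% higher with BCUC-1, which 0.479% of the 12515 genes were, and 2.97% were at least 25% higher or 20% lower. These ratios are part of what chose the group, so nothing is read from that count.

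In UMUC3, MT2A had a ratio of 0.866 (0.849 to 0.884), from 16720 reads with BCUC-1 and 22498 with vector. MT1X had 0.824 (0.744 to 0.913), from 647 and 915 reads. Both lay below 1, as did the metallothionein total at 0.865 (0.848 to 0.882). The rank of MT2A was 1162 and that of MT1X 588 from the lowest ratio of 12156 genes, so many genes of this pair had lower ratios. MT1E, with 1 read against 2, had a ratio of 0.583 (0.00988 to 11.2) and no direction can be given.

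The regulator and the transporters did not share this pattern. MTF1 had ratios of 0.978 (0.904 to 1.06) in T24T and 1.09 (0.974 to 1.23) in UMUC3, and both intervals held 1. SLC30A1 had a ratio of 1.00 (0.896 to 1.12) in T24T, from 631 reads with BCUC-1 and 632 with vector. In UMUC3 SLC30A1 had 0.773 (0.692 to 0.864), from 534 and 805 reads, and was the only gene of the group with 200 reads that was at least 20% lower there. In that pair 2.99% of genes were that much lower and 8.16% were at least 20% lower or 25% higher, while 0.504% of 15686 genes passed 2-fold. SLC39A10 had 0.825 (0.783 to 0.869) in T24T and 0.834 (0.778 to 0.893) in UMUC3, and was thus the only gene of the group with an interval below 1 in both lines. It ranked 476 from the lowest ratio of 12515 genes in T24T and 679 of 12156 in UMUC3, so many genes had lower ratios. Outside the group, the exporter SLC30A7 also had intervals below 1 in both lines. Its ratios were 0.917 (0.842 to 0.997) in T24T and 0.807 (0.738 to 0.883) in UMUC3.

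Differences in UMUC3 moved with base composition. Across genes, the Spearman correlation of the log2 ratio with GC content was 0.0334 in T24T and 0.631 in UMUC3, where genes share libraries and are not independent. Genes of like GC content to MT2A and MT1X had median log2 ratios of 0.11 and 0.092 in UMUC3, and those like SLC30A1 and SLC39A10 had -0.14. With that trend removed, the UMUC3 log2 ratio was -0.30 for MT2A (-0.21 before) and -0.38 for MT1X (-0.28 before), so MT1X was then more than 20% lower. For SLC30A1 it was -0.23 (-0.37 before), no longer 20% lower, and for SLC39A10 -0.13 (-0.26 before). In T24T the removal left 0.52 for MT1E, 0.44 for MT1X, 0.23 for MT2A and -0.25 for SLC39A10. The GC content of SLC30A7 was 36.2%, on the side where UMUC3 ratios ran low, and the trend was not removed from its ratio above.

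**Figure D4:**
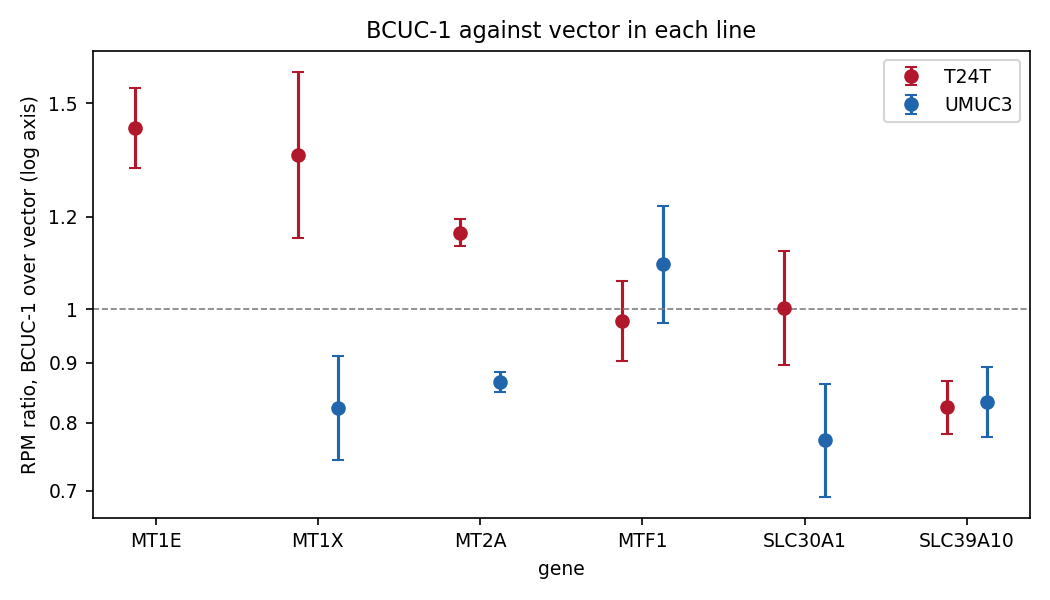
Ratio of RPM, BCUC-1 over vector, on a log axis in T24T and UMUC3 with exact 95% intervals; MT1E in UMUC3, with 1 and 2 reads, is not drawn. MT1E (1.43), MT1X (1.35) and MT2A (1.16) lie above 1 in T24T, MT1X (0.824) and MT2A (0.866) below 1 in UMUC3, and SLC39A10 below 1 in both lines.

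Fitted over both lines, MT2A and MT1X stood near 0 and SLC39A10 was lowest. The log2(RPKM + 1) difference of BCUC-1 minus vector was 0.0052 (SE 0.096) for MT2A, 0.060 (SE 0.13) for MT1X and 0.23 (SE 0.12) for MT1E. It was 0.034 (SE 0.10) for MTF1, -0.15 (SE 0.11) for SLC30A1 and -0.25 (SE 0.081) for SLC39A10. These SEs draw on the variance of other genes, and the lines had opposite signs for MT2A and MT1X. Over all 14865 genes tested, limma called 0.0336%, and the 5 called genes were small RNA or noncoding genes (SNORD21, SNORD98, RP11-690I21.1, MIR877 and MIR7161), named after their values were seen. Of the 48 tested genes of the zinc, copper and iron, stress and glucocorticoid lists, limma called 0 (0 at an unadjusted p under 0.05, where 693 of all genes, 4.66%, were), and limma-voom called 0 (3 at an unadjusted p under 0.05, where 565 of all genes were).

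Most of the other zinc exporters that could be tested were higher in T24T. Of the SLC30 family, 7 genes besides SLC30A1 were in the table and 5 could be tested, of which 4 rose in T24T relative to UMUC3 and 0 fell, with a median log2 difference of 0.61. The median of all 14865 genes tested was 0.10, which equal-median scaling moved to -0.010, and 73.5% of genes passed (42.5% higher, 31% lower in T24T). SLC30A4, an exporter of endosomes and lysosomes, had 1.54 and 1.86 RPKM in T24T BCUC-1 and vector, against 0.0109 and 0.0140 RPKM in UMUC3 BCUC-1 and vector, from 294, 355, 2 and 3 reads. It was present in T24T and near 0 in UMUC3, as MT1E was, with a fitted log2 difference of 1.41 (SE 0.086, adjusted p = 7.35e-08) and a summed T24T to UMUC3 ratio of 135 (57.6 to 418). SLC30A5 (0.94) and SLC30A6 (0.39), which load zinc into the secretory pathway, and SLC30A9 (0.61) also rose. SLC30A7, of the Golgi, stood at 0.18 (adjusted p = 0.121) and passed with limma-voom (adjusted p = 0.0404), and SLC30A3 and SLC30A8 were too low to test. These 4 calls and their direction held under equal-median and quantile scaling.

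The importers were mixed. Of the SLC39 family, 12 genes besides SLC39A10 were in the table and 9 were tested, of which 3 rose and 1 fell in T24T relative to UMUC3, with a median log2 difference of 0.072. This share of calls is below the 73.5% of all genes (42.5% higher, 31% lower in T24T). SLC39A6, the closest relative of SLC39A10, had 62.2 and 65.3 RPKM in T24T BCUC-1 and vector, against 29.5 and 30.4 RPKM in UMUC3 BCUC-1 and vector (log2 difference 1.07, SE 0.069, adjusted p = 1.15e-07). SLC39A8, a zinc and manganese importer, rose by 0.42, and SLC39A1 by 0.33, SLC39A1 not being past the threshold with equal medians (adjusted p = 0.0555). SLC39A13, of the Golgi, fell by 0.58 (SE 0.12, adjusted p = 0.00108). With no filter on low values, SLC39A8 (adjusted p = 0.052) and SLC39A13 (adjusted p = 0.0815) did not pass. SLC39A7, which releases zinc from the endoplasmic reticulum, and SLC39A9 were abundant, at 59.0 to 64.5 RPKM and 22.4 to 23.4 RPKM over the libraries, and did not pass (adjusted p = 0.349 and 0.831). SLC39A14 stood at -0.18 (adjusted p = 0.074) and passed as lower in T24T with equal medians (adjusted p = 0.0152). SLC39A3 and SLC39A11 did not pass (adjusted p = 0.055 and 0.435), but SLC39A3 passed as higher with limma-voom (adjusted p = 0.0168) and SLC39A11 as lower with quantile scaling (adjusted p = 0.0495). SLC39A2, SLC39A4 and SLC39A5 were too low to test. Within a line, none of the SLC30 genes other than SLC30A1 with 200 reads in the pair was 25% higher or 20% lower with BCUC-1. Below that read floor, SLC30A3 had 41 reads with BCUC-1 and 94 with vector in UMUC3, a ratio of 0.508 (0.343 to 0.741). In T24T its ratio was 1.00 (0.727 to 1.39), and it is named here after its values were seen. Of the SLC39 genes, SLC39A13 was past that size in UMUC3 alone, higher with BCUC-1 at 1.32 (1.17 to 1.49) where 5.17% of genes were, while it had 0.915 (0.779 to 1.07) in T24T. The GC content of SLC39A13 was 62.8%, and genes of high GC content tended to higher ratios in UMUC3. That trend was not removed from this ratio.

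**Figure D5:**
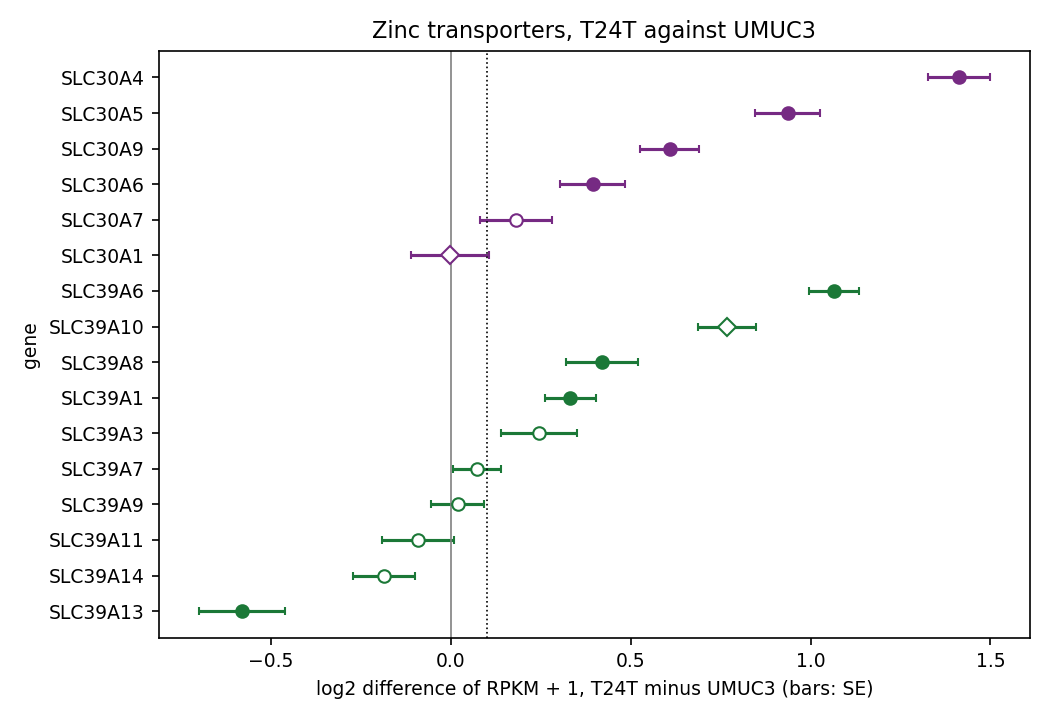
Fitted log2(RPKM + 1) difference of T24T minus UMUC3 for zinc exporters (SLC30, purple, upper rows) and importers (SLC39, green, lower rows), with standard errors; filled points passed limma at an adjusted p of 0.05, open points did not, diamonds are SLC30A1 and SLC39A10, which were not tested, and the dotted line is the median of all genes (0.10). The 4 filled exporters lie at 0.39 to 1.41, and the filled importers on both sides of 0.

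Genes of copper and iron handling also differed in both directions, with 4 of 14 tested higher and 5 lower in T24T, a share of calls no higher than the 73.5% of all genes. The ferritin chains FTL and FTH1, which store iron, fell by 1.17 and 0.71 on the log2 scale in T24T relative to UMUC3. ATOX1, a copper chaperone of the cytosol, fell by 1.28 and COX17, which brings copper to mitochondria, by 0.76. ATP7A, the copper-exporting ATPase, rose by 1.03 and the copper importer SLC31A1 by 0.63, and IREB2, an iron sensor, by 0.94. The transferrin receptor TFRC rose by 0.36, not past the threshold with equal medians (adjusted p = 0.0684) or with no filter (adjusted p = 0.0794). Within a line, 1 gene of this list was past the size used above, the copper chaperone CCS in T24T, at 0.782 (0.667 to 0.916) with BCUC-1 where 2.49% of genes were 20% lower, named after its values were seen.

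Of 14 stress response genes, 4 rose and 7 fell in T24T relative to UMUC3, where 42.5% of all genes rose and 31% fell. HMOX1, the heme oxygenase gene that metals and oxidants induce, had 3.10 and 2.65 RPKM in T24T BCUC-1 and vector, against 20.01 and 25.2 RPKM in UMUC3 BCUC-1 and vector (log2 difference -2.60, SE 0.12, adjusted p = 5.65e-09). TXNRD1, a thioredoxin reductase, fell by 1.56 and GCLM, a subunit of the enzyme of glutathione synthesis, by 1.17. The heat shock genes HSPA1A and HSPA1B, near-identical copies whose reads may be split between them, rose by 2.80 and 1.76, and HSPH1 by 0.63. HSPA8, the constitutive chaperone, did not pass (0.16, adjusted p = 0.0525), and passed with quantile scaling (adjusted p = 0.000148). With BCUC-1 in UMUC3, 9 of the 14 had a log2 ratio above 0 and 5 below, and none was 25% higher. Among the higher ones were HSPA1B at 1.16 (1.09 to 1.24), HSF1 at 1.17 (1.09 to 1.26), SRXN1 at 1.16 (1.10 to 1.22) and NQO1 at 1.02 (0.967 to 1.07). HMOX1 (0.793, 0.733 to 0.856) and GCLM (0.752, 0.716 to 0.790) were at least 20% lower, as 2.99% of all genes were, and TXNRD1 had 0.879 (0.868 to 0.890). The GC trend of UMUC3 was not removed from these ratios, and GC content was 37.3% for GCLM and 58.1% for HMOX1. In T24T the ratios were 1.17 (0.936 to 1.46) for HMOX1, 1.04 (0.968 to 1.13) for GCLM and 1.09 (1.06 to 1.11) for TXNRD1. These values stand beside those of MT2A and MT1X in the same libraries, and a link between them was not tested.

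Of 6 tested genes of the glucocorticoid response, 2 rose and 2 fell in T24T relative to UMUC3, near the 73.5% called over all genes. NR3C1, the glucocorticoid receptor, fell by 0.94 and its target DUSP1, a phosphatase, by 2.01, while FKBP5, a receptor co-chaperone, rose by 0.56. PER1, a clock gene, rose by 0.31, but did not pass with quantile scaling (adjusted p = 0.34), nor with no filter (adjusted p = 0.221). Its BCUC-1 to vector ratio was 0.889 (0.726 to 1.09) in T24T and 1.52 (1.19 to 1.96) in UMUC3, where 5.17% of genes were at least 25% higher. The GC content of PER1 was 62.7%, on the side where UMUC3 ratios ran high, and that trend was not removed from this ratio. ERRFI1, the most abundant of the list, had 54.2 and 54.9 RPKM in T24T BCUC-1 and vector, against 56.2 and 62.0 RPKM in UMUC3 BCUC-1 and vector, and did not pass (adjusted p = 0.167; 0.0332, lower in T24T, with equal medians).

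The profiles most like those of MT1E and MT2A were found by the Euclidean distance between log2(RPKM + 1) values, centred per gene, over the 4 libraries and among 10012 genes with at least 1000 reads. Nearest to MT1E were RP11-66B24.4 (distance 0.409), SPINT2 (0.411), RP11-66B24.8 (0.416), DCBLD2 (0.441) and MDK (0.476). SPINT2, a protease inhibitor, had 47.1 and 48.4 RPKM in T24T BCUC-1 and vector, against 0.0677 and 0.0798 RPKM in UMUC3 BCUC-1 and vector, so it shared the line difference and not the BCUC-1 difference of MT1E. Near to MT2A were RP11-361D15.2 (0.0597), SNORA40 (0.0619), THOC7 (0.0718) and B4GALT6 (0.0886). THOC7, of the RNA export machinery, had 22.2 and 20.4 RPKM in T24T BCUC-1 and vector, against 35.3 and 40.6 RPKM in UMUC3 BCUC-1 and vector, the same order as MT2A. These genes were picked by their profile, so the order they share with MT1E or MT2A follows from that choice.

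Depth was even, between 22730112 and 26497894 assigned reads per library. FNDC3B, the host gene, had BCUC-1 to vector ratios of 0.949 (0.888 to 1.02) in T24T and 0.987 (0.928 to 1.05) in UMUC3, but gene-level reads do not separate the circular RNA from linear transcripts, so the overexpression could not be checked. Of 16 urothelial and epithelial markers in the table, which summed to 264 and 247 RPKM in T24T BCUC-1 and vector, against 61.4 and 59.2 RPKM in UMUC3 BCUC-1 and vector, 4 could be tested. The keratins KRT8, KRT18 and KRT7 rose in T24T relative to UMUC3 and PPARG did not pass (adjusted p = 0.819), with KRT8 at 146 and 133 RPKM in T24T BCUC-1 and vector, against 13.2 and 13.0 RPKM in UMUC3 BCUC-1 and vector. The share of these 4 markers that passed is near the 73.5% of all genes. The defining markers UPK3A, KRT5, KRT20 and CDH1 were at or below 0.0419 RPKM in every library, while UPK1B reached 1.03 RPKM in T24T BCUC-1, UPK2 0.955 RPKM and FOXA1 1.17 RPKM in T24T vector. Summed fibroblast markers (5 genes) reached 0.189 to 0.781 RPKM and endothelial markers (3 genes) 0.0364 to 0.0705 RPKM. Among leukocyte markers, CD14 was near 0 and CD68, a lysosomal gene, had 6.78 and 7.45 RPKM in T24T BCUC-1 and vector, against 124 and 119 RPKM in UMUC3 BCUC-1 and vector.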

How the data were processed

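Total RNA, isolated with a column kit per the labels' protocols, gave 4 sequencing libraries, and each column of the deposited table was assigned to its group by the sample title. The deposited table gives RPKM, scaled by the authors to gene length and to 1000000 assigned reads, and a Length of unit "other", per the file headers, in bases. The submitters' processing notes name Bowtie 0.12.2; its role, no build or annotation is named (not given in the sources used here). For 100% of genes, RPKM times length came out as whole reads (tolerance 0.001 reads), so read numbers were recovered. Of 22720 symbols with a single gene in GENCODE 29, 96.8% shared its start or end, so GRCh38 coordinates are given.

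The genes and the other lists were chosen with earlier results of these data known. Line and BCUC-1 effects were fitted on log2(RPKM + 1) with limma 3.58.1 (R 4.3.3, intensity trend, two-sided, Benjamini-Hochberg adjusted p of 0.05). The fit used genes with at least 1 RPKM in 2 libraries and 50 reads in all, and left 1 residual degree of freedom. The fit was also run on simulated data as a check of the script. P-values and SEs rest on how far the BCUC-1 difference disagreed between the lines, which may be technical. In limma the variance of each gene is drawn towards that of other genes, so an SE can be smaller than a gene's own values give. Variation between cultures or transfectants of a line was not measured. Within a line no test was made. Ratios of RPM (reads per 1000000 assigned reads) carry exact Clopper-Pearson intervals, levels exact Poisson intervals. Counts of genes used a prior count of 2, with 2-fold (1 RPM or more in a library, 20 reads or more in the pair) and 25% higher or 20% lower (200 reads or more in the pair) as sizes. GC content was known for 69.1% of genes, and the trend was the median in 20 bins. Of each list, the 4 genes with the highest mean RPKM and up to 3 called genes per direction with the largest line difference were to be named, zinc transporters are named beyond that, and lists near 0 are given as sums. A gene with a profile like that of MT2A and a leukocyte marker are not reported here.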

Additional observations from a re-analysis of the deposited data

Results flagged for a closer look

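The BCUC-1 against vector difference had opposite signs in the lines for MT2A and MT1X. For MT2A the log2 difference was 0.22 in T24T and -0.21 in UMUC3, and for MT1X 0.44 and -0.28 in the same lines. T24T minus UMUC3 came to 0.42 for MT2A and 0.72 for MT1X. With 1 library per group this difference was not tested, since a model with that term leaves no residual degree of freedom.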

How the results depend on the processing

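The values of MT2A, MT1E, MT1X, MTF1, SLC30A1 and SLC39A10 under other settings numbered 206. Of these, 188 stayed within the counting interval of a ratio or, for fitted differences, within the SD of the 2 pairs behind them, and 18 moved further. Values of 1 pair alone lie within that SD by construction: for BCUC-1, MT1X was 0.38 in T24T and -0.26 in UMUC3 alone. These genes were not tested, so there was no test call to reverse. Size calls did change in UMUC3. MT1X became more than 20% lower with the GC trend (-0.38) or the length trend (-0.33) removed. SLC30A1 was no longer 20% lower with the GC trend removed (-0.23) or on the log2(RPKM + 1) scale (-0.31). The MT2A line difference was -0.55 with quantile normalization (-0.81 above). The MT1E line difference was 8.38 with a pseudocount of 0.1 and 9.44 with limma-voom (5.65 above); no UMUC3 value of MT1E with the GC or length trend removed could be had, as it is below the read floors. SLC30A1 ranged from -0.16 to 0.15 in the line contrast and MT2A from -0.30 to -0.21 for BCUC-1 in UMUC3. Counts of genes moved more, and the cause was not tested beyond what each setting does by construction. In T24T, the 56 genes past 2-fold were 1 on the log2(RPKM + 1) scale, 1639 with no filter and 35 with the GC trend removed, and the 372 at least 25% higher or 20% lower were 101 and 11242 under the same scale and without filter. In UMUC3, the 79 genes past 2-fold were 12, 1819 and 43 under those 3 settings, and the 992 past the smaller size were 417, 12047 and 368. The UMUC3 split at that size was 628 higher and 364 lower, 169 and 199 with the GC trend removed, 432 and 554 with equal medians, and 428 and 547 with the length trend removed. The T24T split was 60 higher and 312 lower, and 92 and 244 with equal medians. Removing the GC trend also left out genes of unknown GC content, which by itself lowers counts. Genes tested at 2-fold fell from 16084 to 13261 in T24T and from 15686 to 12971 in UMUC3. They fell from 12156 to 10745 at the smaller size in UMUC3, and from 14865 to 12099 over both lines. Over both lines the 5 calls (2 higher, 3 lower) became 0 with no filter, no read floor, quantile normalization or no line term, 82 (39 higher) with a floor of 5 RPKM, 14 (9 higher) with a pseudocount of 0.1, 13 (3 higher) with limma-voom, 2 with the GC trend removed, 34 (15 higher) with the length trend removed and 4 (1 higher) with equal medians. The 10921 line calls, of 14865 genes tested, were 6786 with a floor of 5 RPKM, where 8784 genes were tested. With no filter they were 9908 of 32973 genes tested, a much smaller share. Under the other settings they stayed between 10719 and 10909, with 5283 higher and 5436 lower under equal medians. No count was made for each line alone in the fit over both lines, which then has no test. Line is a term of that fit, so the BCUC-1 and vector libraries of a line are already paired in it; the labels give no replicate numbers to block on besides. Depth limits MT1E in UMUC3 and MT1F in all libraries, which had 0 to 2 reads.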
